A study of Mus musculus with 7 samples.

Results

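The H3K27-Ac peaks of 10 genes of the epithelial-mesenchymal transition were described in 3 tumour cell clones. The genes were a set list, namely the repressors *Snai1*, *Snai2*, *Twist1*, *Twist2*, *Zeb1* and *Zeb2*, the filament gene *Vim*, and the cadherin genes *Cdh1*, *Cdh2* and *Cdh3*. *Cdh1* and *Cdh3* were counted as epithelial and the other 8 as mesenchymal. They are 10 of the 21938 protein-coding genes of the GENCODE annotation of the mouse genome build GRCm38. The cells carried a *Cdkn2ab* mutation, which the study describes as loss of p15Ink4b, p16Ink4a and p19Arf (Cdkn2ab-/-), on a mixed FVB/129P2 backcross. All clones shared this genotype, no agent or time course was used, and no wild-type or untreated group was part of the series. Per the study's methods, each line was grown from skin tumour tissue and picked as a colony able to grow in soft agar, so that each line is 1 clone. Chromatin was precipitated for H3K27-Ac in 4 libraries and with IgG in 3, and the data are 1 peak list per clone.

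H3K27-Ac, the acetylation of lysine 27 on histone H3, marks active promoters and enhancers. During an epithelial-mesenchymal transition, cells loosen the contacts that E-cadherin holds together and gain motility, an intermediate filament network of vimentin, and often N-cadherin in place of E-cadherin. The Snail and Zeb factors are zinc finger proteins and the Twist factors are basic helix-loop-helix proteins; all bind E-box sequences and are known as repressors of *Cdh1*. In skin, *Cdh1* is present throughout the epidermis, whereas *Cdh3* marks basal cells and the hair germ.

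Clones 1, 2 and 3 had lists of 29182, 49587 and 29277 peaks. The value given for a peak is the number of ChIP reads at its summit, recovered from the deposited fold enrichment and p-value, with an exact Poisson interval at the 95% level that covers counting error only. The weakest listed peak had 13 reads in clone 1, 12 in clone 2 and 25 in clone 3, so that a site below about these counts would not have been listed. Reads were compared between genes only within a clone, because depth, background and list length differed. Within the 100 kb on either side of the 10 genes lay 80, 135 and 73 peaks of clones 1, 2 and 3. The cells were also checked for markers of skin. Of the hair follicle genes, *Sox9*, *Tcf7l1* and *Cdh3* had promoter peaks in every clone, *Lhx2* in clone 2 only, and *Lef1*, *Shh* and *Edar* in none. Of the basal keratinocyte genes, *Itga6* had one in every clone, *Krt14* in clone 1 only, and *Krt15* and *Col17a1* in clone 2 only. *Krt5*, *Trp63*, *Itgb4* and *Lamb3* had none in any clone. Of the whole basal keratinocyte list, 2 of 8 genes had a promoter peak in clone 1, 3 in clone 2 and 1 in clone 3. Of the fibroblast and dermal papilla list, which includes *Twist2*, the counts were 4, 4 and 1 of 8. Of the hair follicle list, which includes *Cdh3*, they were 3, 4 and 3 of 7. Of the suprabasal list 1 of 5 and of the melanocyte list 2 of 5 had one in each clone. Beside these, 49.8%, 56.9% and 48.1% of all protein-coding genes had a promoter peak in clones 1, 2 and 3.

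A promoter peak, defined as a peak within 1 kb of any annotated start of the gene, was present in all 3 clones for 8 of the 10 genes. Of the mesenchymal genes 7 of 8 had one in every clone, and of the epithelial genes 1 of 2. Over all protein-coding genes this held for 46.5%, and 42.6% had no promoter peak in any clone. By clone, 49.8%, 56.9% and 48.1% of protein-coding genes had a promoter peak in clones 1, 2 and 3. The mesenchymal genes counted 8, 8 and 7 of 8, and the epithelial genes 1 of 2 in each clone. The exceptions were *Cdh1*, with no promoter peak in any clone, and *Snai1*, with a promoter peak in clones 1 and 2 but not in clone 3. With 2 epithelial genes the counts of the groups were not tested against each other.

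**Figure D1:**
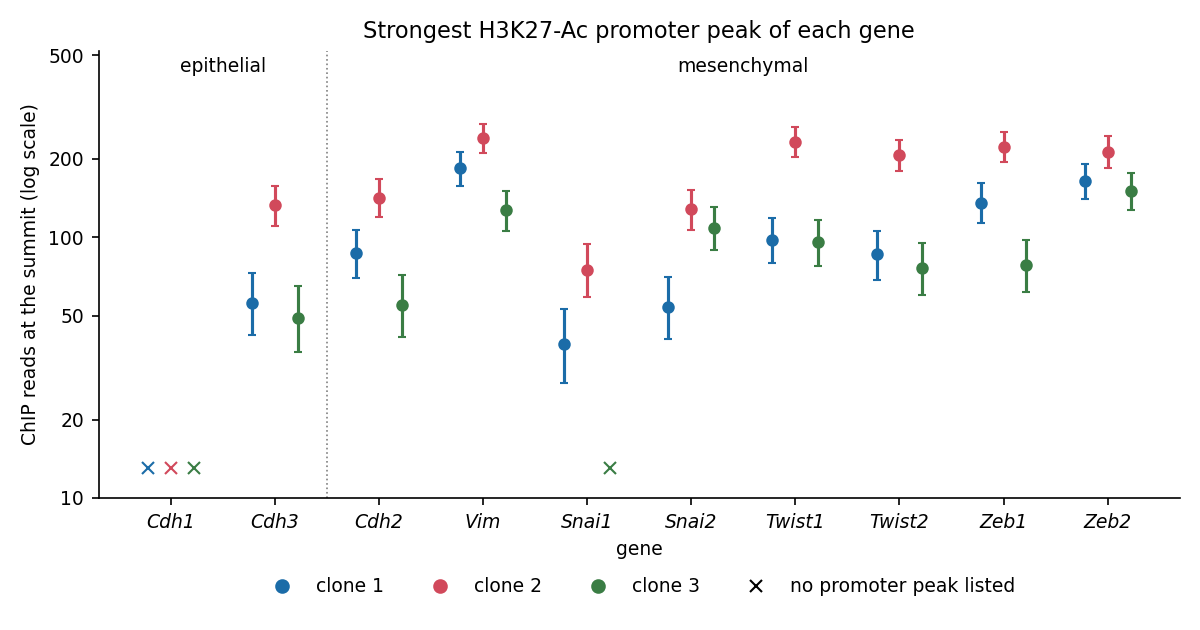
ChIP reads at the summit of the strongest H3K27-Ac promoter peak (logarithmic y axis) for each gene (x axis) in clones 1, 2 and 3, with exact Poisson intervals at the 95% level as bars. Crosses near the lower axis, which carry no value, mark genes with no promoter peak in that list: *Cdh1* in all clones and *Snai1* in clone 3.

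*Cdh1* encodes E-cadherin, the main cadherin of epithelial junctions. The gene lies on chromosome 8 from 106603351 to 106670246 on the plus strand and has 3 annotated starts. Clone 1 had its nearest peak 14.9 kb from a start, clone 2 had it at 7.55 kb and clone 3 at 15.0 kb. Inside the gene, however, clone 1 had 4 peaks, clone 2 had 8 and clone 3 had 2. All of them had their summit in intron 2, which is 44.6 kb long and makes up 67.6% of the coding transcript with the most exons. The strongest stood 16.67 kb after the start in clone 2 and overlapped a peak of each other clone. It had 79 reads (62.5 to 98.5) in clone 1, 221 reads (193 to 252) in clone 2 and 82 reads (65.2 to 102) in clone 3, and its fold enrichment over the local background was 15.6, 42.4 and 8.19. Within their lists these folds stood at the percentiles 75.9, 89.4 and 76.8 of all peaks. A further intron 2 element at 19.62 kb was listed in all clones with 59, 58 and 71 reads.

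The 300 bases of the *Cdh1* intron 2 element around the summit of clone 2, at chr8:106619873-106620172 (GRCm38.p6, plus strand), are shown because the strongest peak of the gene lay here and not at its promoter. Motifs searched on both strands were the E-box CAGGTG, the GC box GGGCGG and the AP-1 site TGACTCA, and matches would be in capitals. None of them occurred in this window. They were found in 26.3%, 24.2% and 6.93% of the windows of this length at the summits of all clone 2 peaks.
Cdh1 intron 2 element: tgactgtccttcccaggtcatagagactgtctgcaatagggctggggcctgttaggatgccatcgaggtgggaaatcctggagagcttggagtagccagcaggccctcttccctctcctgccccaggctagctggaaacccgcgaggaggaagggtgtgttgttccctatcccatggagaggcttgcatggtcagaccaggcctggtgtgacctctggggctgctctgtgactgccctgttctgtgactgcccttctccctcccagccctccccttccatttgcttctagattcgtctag

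*Cdh3* encodes P-cadherin, the cadherin of basal and hair germ cells, and lies upstream of *Cdh1*, on chromosome 8 from 106510891 to 106557297, with its start 92.5 kb away. It had 1 promoter peak in each clone, with 56 reads (42.3 to 72.7) in clone 1, 133 (111 to 158) in clone 2 and 49 (36.3 to 64.8) in clone 3. Ranked by fold among all protein-coding genes with a promoter peak, these peaks stood at the percentiles 18.5, 22.1 and 11.1, in the lower part of that ranking. It holds promoter peaks only, unlike the ranking among all peaks given for the *Cdh1* element. In clone 3 the peak began after the start, whereas in clones 1 and 2 it covered it. Body peaks were more numerous, with 9 in each clone, and all had their summit in intron 2, 24.1 kb long and 51.9% of the transcript. The strongest of them by fold in clone 3 had 139 reads (117 to 164), more than the promoter peak of the same clone. By fold the strongest body peak of clone 1 was at 19.57 kb with 78 reads, and that of clone 2 at 8.44 kb with 98. In *Cdh1* as in *Cdh3*, the body peaks thus lay in intron 2.

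The windows of *Cdh1* and *Cdh3* overlap, and most of their peaks are the same. In clone 1 they shared 15 of 20 peaks, in clone 2 21 of 29 and in clone 3 15 of 18. Outside the promoters and bodies of both genes lay 6, 11 and 6 distinct peaks in clones 1, 2 and 3. Between the genes lay an element 39.32 kb before the *Cdh1* start, with 36, 156 and 52 reads. Peaks also lay at the promoters of the neighbours *Zfp90* and *Tango6*, and in clones 1 and 3 at that of *6030452D12Rik*. Chromosome 8 differed from the other chromosomes of the list in the background recovered with the reads, whose control is unknown for clone 2. Its median at the peaks of the chromosome was 1.35, 1.40 and 1.43 times that of the other autosomes in clones 1, 2 and 3, against 1.00 for the chromosomes of the other genes. Its part in the reads of *Cdh1* and *Cdh3* was not tested.

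**Figure D2:**
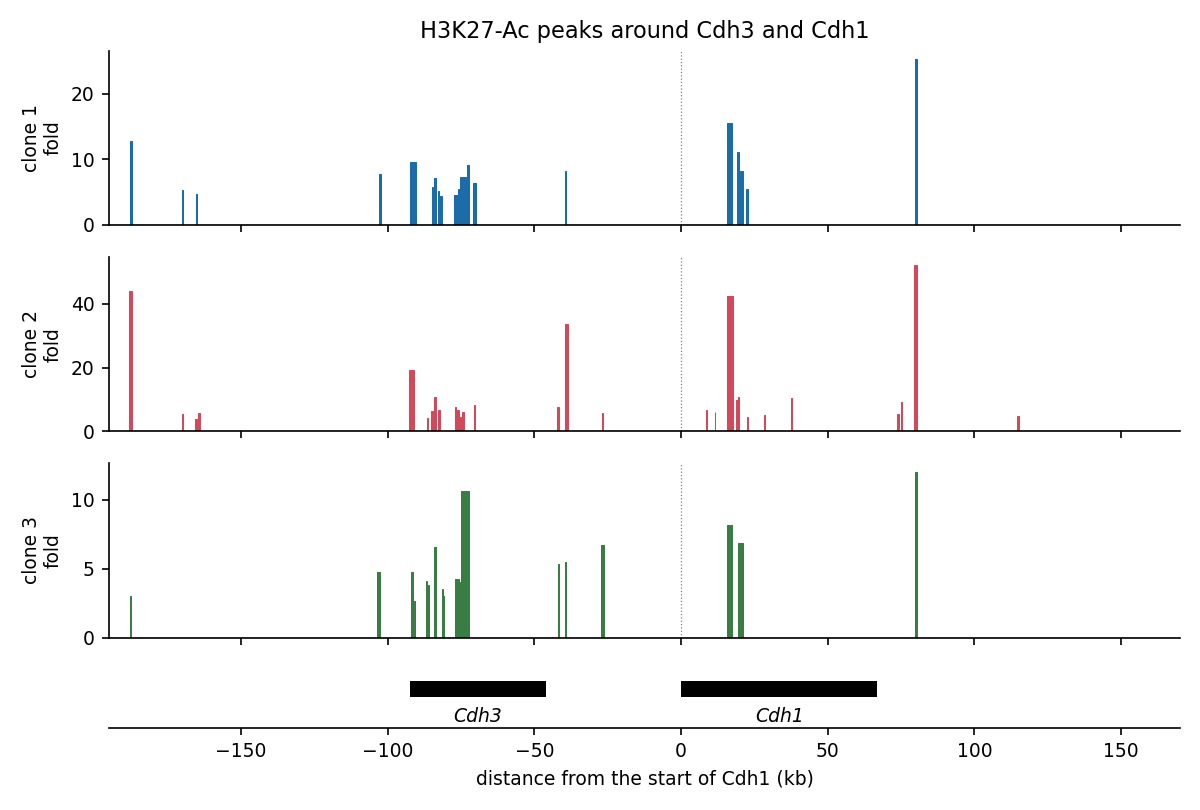
H3K27-Ac peaks of clones 1, 2 and 3 around *Cdh3* and *Cdh1*, with the distance from the start of *Cdh1* in kb on the x axis and the fold enrichment at the summit on the y axis, scaled per clone. Black bars are the genes and the dotted line is the *Cdh1* start, where no clone has a peak; the strongest peaks inside *Cdh1*, of 15.6, 42.4 and 8.19-fold, stand about 16.67 kb after it.

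*Snai1*, the gene of the zinc finger repressor Snail, lies on chromosome 2 from 167538195 to 167542814 and is 4.62 kb long. Its promoter peak had 39 reads (27.7 to 53.3) in clone 1 and 75 (59.0 to 94.0) in clone 2, and none was listed in clone 3. In clones 1 and 2 it was among the weaker promoter peaks, at the percentiles 5.74 and 12.0 by fold. In clone 1 it began inside the gene and did not cover the start. Of all clone 1 peaks with 32 to 46 reads, 73.1% overlapped a peak of clone 3, and of the clone 2 peaks with 60 to 90 reads 57.0% did. Of the promoter peaks among them, 77.8% and 53.5% did. Clone 3 thus lacked a peak that most, but far from all, peaks of this strength had there. A site under its lowest listed count of 25 reads would not be seen. That count is the lowest of the whole list, and a site with a higher local background needs more reads. Peaks covered 34.9% of the gene in clone 1, 80.8% in clone 2 and none of it in clone 3.

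Around the gene the picture was another. An element just beyond its 3' end, at 5.58 kb, was present in all clones with 66, 173 and 74 reads, and is counted as a body peak in clones 1 and 2, where it covers the last 96 and 1484 bases of the gene. Further downstream, elements at 14.81, 32.22, 36.6, 47.93 and 57.72 kb were shared by all clones as well. At 32.22 kb the reads were 63, 195 and 56, and at 57.72 kb they were 66, 137 and 52. In clone 1 the promoter belonged to a domain, made by joining peaks at most 12500 bp apart, of 59.7 kb and 15 peaks that ranked 26 of 14560 by bases under peaks. In clone 2 the domain was 124 kb long with 51 peaks and ranked 16 of 18280. It also held the starts of *Ube2v1*, *Tmem189* and *Gm20431*, so that its peaks cannot be assigned to *Snai1* alone. In clone 3 no domain reached the *Snai1* promoter. The window from 100 kb before to 100 kb after *Snai1* held 26.3, 53.3 and 12.2 kb under peaks, at the percentiles 99.4, 99.6 and 95.3 of all protein-coding genes by the covered share. Clone 3 lay lowest and clone 2 highest, although 5, 6 and 4 of the peaks in clones 1, 2 and 3 lay at promoters of other genes such as *Rnf114* and *Spata2*.

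**Figure D3:**
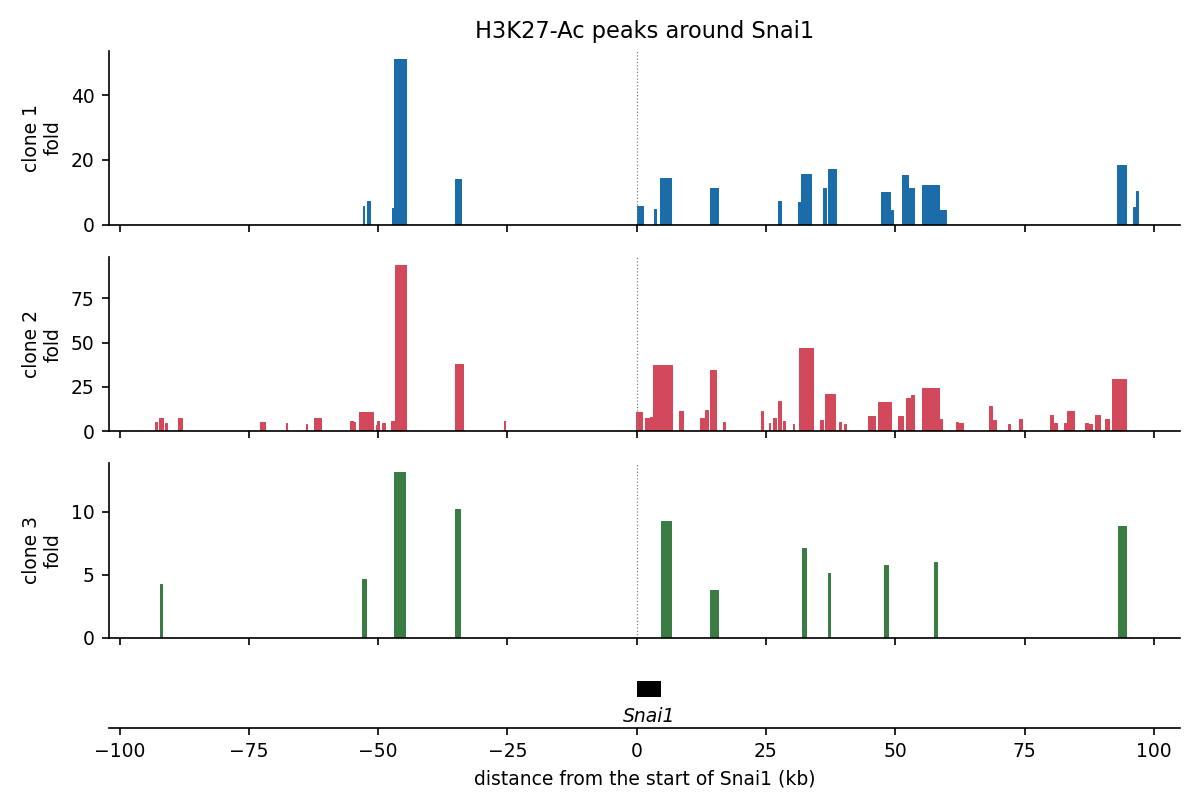
H3K27-Ac peaks of clones 1, 2 and 3 around *Snai1*, with the distance from its start in kb on the x axis and the fold enrichment at the summit on the y axis, scaled per clone. The black bar is the gene; clone 3 has no peak in it, while the element at 5.58 kb is present in every clone.

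The 250 bases before the *Snai1* start, chr2:167537945-167538194 on the plus strand, are shown with the element at the 3' end, chr2:167543620-167543919, because these are the places where the clones differed and did not differ. Capitals mark the E-box, here as CACCTG, the only match to a searched motif in the promoter window. The E-box occurred in 17.2% of the 32851 RefSeq promoter windows of this length, the GC box in 32.7% and the AP-1 site in 4.46%. Peaks covered 40.4% of the window in clone 2 and none of it in clones 1 and 3. The promoter sequence is from RefSeq (GRCm38.p6), and the 3' element is the genome sequence around the summit of clone 2.
Snai1 promoter: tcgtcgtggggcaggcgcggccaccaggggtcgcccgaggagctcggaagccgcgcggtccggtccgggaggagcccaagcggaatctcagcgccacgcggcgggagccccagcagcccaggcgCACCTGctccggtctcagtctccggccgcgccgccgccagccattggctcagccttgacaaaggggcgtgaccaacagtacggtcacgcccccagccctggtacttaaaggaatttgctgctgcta
Snai1 3' element: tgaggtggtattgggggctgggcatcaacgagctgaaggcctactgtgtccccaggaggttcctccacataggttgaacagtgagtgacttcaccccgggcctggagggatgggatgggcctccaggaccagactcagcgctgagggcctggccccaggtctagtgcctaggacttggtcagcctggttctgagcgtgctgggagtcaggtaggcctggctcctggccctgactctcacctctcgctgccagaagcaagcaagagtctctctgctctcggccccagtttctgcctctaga

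*Snai2* encodes Slug, the second Snail factor, and lies on chromosome 16 from 14705852 to 14709385. Its strongest promoter peak had 54 reads (40.6 to 70.5) in clone 1, 128 (107 to 152) in clone 2 and 109 (89.5 to 131) in clone 3. By fold this peak stood at the percentile 61.9 in clone 3, against 6.13 in clone 1 and 15.6 in clone 2. The summits differed in place, however. In clone 3 the summit lay at -0.62 kb from the start, and in clones 1 and 2 at 0.14 and 0.1 kb. The clone 3 peak at 0.42 kb had 51 reads. The background that enters the fold was 3.0 in clones 1 and 2, and its part was not tested. There were 1, 2 and 3 promoter peaks. Beyond them the gene was nearly bare, with 1 body peak in clone 3 and 1 distal peak each in clones 1 and 3. No other protein-coding gene starts within 100 kb of it. Its domains were short, at 2.62, 2.03 and 4.45 kb.

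*Twist1*, a basic helix-loop-helix factor of mesenchymal cells, lies on chromosome 12 from 33957671 to 33959829. Its strongest promoter peak had 98 reads (79.6 to 119) in clone 1, 232 (203 to 264) in clone 2 and 96 (77.8 to 117) in clone 3. The percentiles were alike between clones, at 57.4, 65.9 and 66.8. Peaks covered 78.6%, 64.6% and 48.9% of this short gene. The only shared distal element, at 82.97 kb, had 61, 60 and 100 reads. *Twist1* and *Snai2* thus had few peaks beyond their promoters. By the covered share, however, the *Twist1* window was near the middle of all protein-coding genes, at the percentiles 50.6, 48.6 and 51.4.

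*Twist2*, its close relative in dermal cells, lies on chromosome 1 from 91801461 to 91848028. Its promoter peak had 86 reads (68.8 to 106) in clone 1, 207 (180 to 237) in clone 2 and 76 (59.9 to 95.1) in clone 3, at the percentiles 28.8, 52.8 and 48.9. The peaks were broad, at 2.58, 3.60 and 3.44 kb. Unlike *Twist1* it had several body peaks, namely 3, 6 and 2 in clones 1, 2 and 3, all in its intron 1. At 15.59 kb they had 41, 83 and 56 reads, and at 22.23 kb 43, 62 and 112. In clone 3 the latter had more reads than the promoter peak, although its interval of 92.2 to 135 overlapped that of the promoter.

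The 250 bases before the RefSeq start of both Twist genes are shown because peaks of nearly every clone covered them whole. They lie at chr12:33957421-33957670 and chr1:91801211-91801460, both on the plus strand. Peaks covered 72.0% of the *Twist1* window in clone 1 and 100% in clones 2 and 3, and 100% of the *Twist2* window in each. Capitals mark the GC box, 1 in *Twist1* and 4 in *Twist2*, some of which adjoin each other; the E-box and the AP-1 site did not occur. The share of G and C was 62.4% and 68.8%, against a median of 52.4% over all promoter windows.
Twist1 promoter: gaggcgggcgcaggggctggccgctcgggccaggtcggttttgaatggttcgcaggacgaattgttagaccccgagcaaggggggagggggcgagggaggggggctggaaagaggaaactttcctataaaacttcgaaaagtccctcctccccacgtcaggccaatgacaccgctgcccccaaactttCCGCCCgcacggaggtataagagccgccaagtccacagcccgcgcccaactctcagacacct
Twist2 promoter: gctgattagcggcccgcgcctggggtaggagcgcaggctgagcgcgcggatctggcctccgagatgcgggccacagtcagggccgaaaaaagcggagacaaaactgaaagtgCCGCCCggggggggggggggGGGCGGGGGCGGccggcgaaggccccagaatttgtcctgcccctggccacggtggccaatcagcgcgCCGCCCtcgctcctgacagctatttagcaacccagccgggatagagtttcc

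*Vim* encodes vimentin, the intermediate filament of mesenchymal cells, and lies on chromosome 2 from 13573927 to 13582826. It had 1 broad promoter peak in each clone, of 5.02, 4.02 and 4.71 kb. The reads were 184 (158 to 213) in clone 1, 240 (211 to 272) in clone 2 and 127 (106 to 151) in clone 3. In clone 1 no promoter peak of the 10 genes had more, while in clones 2 and 3 one of *Zeb2* did. By fold it stood at the percentiles 92.4, 72.3 and 88.3. The peak reached over the first part of the gene, 32.3%, 24.5% and 32.7% of its length, and no separate body peak was listed. Upstream, elements at 16.85 and 14.7 kb before the start were shared, and the former had 101, 155 and 119 reads, in clone 3 as 1 peak that spanned both. In clones 1 and 3 these joined the promoter into domains of 33.5 and 37.8 kb, ranked 101 of 14560 and 42 of 16371, which also held the start of *Trdmt1*. In clone 2 the promoter peak stood alone in its domain, ranked 2053 of 18280.

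For *Zeb2*, a zinc finger and homeobox repressor on chromosome 2 (44983632 to 45117395, minus strand), 29 starts are annotated. Its promoter peaks numbered 2, 5 and 4 in clones 1, 2 and 3. The strongest by fold had 164 reads (140 to 191), 213 (185 to 244) and 150 (127 to 176). In clones 1 and 3 this peak stood 7.72 and 7.63 kb after the outermost start, and in clone 2 a peak at 7.75 kb had 251 reads (221 to 284). Near the outermost start the peak had 20 reads (12.2 to 30.9) in clone 1, 213 in clone 2 and 86 (68.8 to 106) in clone 3. In clone 1 it did not cover that start, and its summit lay 0.33 kb after it. By fold among all peaks of the same list, the peak near the outermost start stood at the percentiles 19.7, 91.4 and 84.4. The inner peak stood at 92.3, 90.3 and 98.9. By fold *Zeb2* stood at the percentiles 78.0, 63.0 and 97.1, and in clone 3 no other gene of the list stood higher. A body peak in the last exon, exon 11, at 128.47 kb had 36, 60 and 39 reads.

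The 250 bases before 1 inner *Zeb2* start, chr2:45110278-45110527, are shown with those before the RefSeq start of *Vim*, chr2:13574061-13574310. They were chosen because peaks of all clones covered 100% of both. The windows before the inner *Zeb2* starts at 45113279 and 45113253 were covered to 0% in every clone. The window before the outer RefSeq start was covered to 0%, 100% and 50.4% in clones 1, 2 and 3. None of these windows held an AP-1 site. The *Zeb2* sequence shown is that of the minus strand. Capitals mark 2 AP-1 sites and 1 GC box in *Zeb2*, and none of the searched motifs occurred in *Vim*. Of the 10 genes 5 had a promoter entry in the RefSeq table; *Cdh1*, *Cdh3*, *Snai2*, *Zeb1* and *Cdh2* had none.
Zeb2 inner promoter: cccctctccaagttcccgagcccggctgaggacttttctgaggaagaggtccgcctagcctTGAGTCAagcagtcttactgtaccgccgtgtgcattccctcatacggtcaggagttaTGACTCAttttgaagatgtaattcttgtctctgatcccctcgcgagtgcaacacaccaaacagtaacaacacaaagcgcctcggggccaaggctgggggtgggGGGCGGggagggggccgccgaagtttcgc
Vim promoter: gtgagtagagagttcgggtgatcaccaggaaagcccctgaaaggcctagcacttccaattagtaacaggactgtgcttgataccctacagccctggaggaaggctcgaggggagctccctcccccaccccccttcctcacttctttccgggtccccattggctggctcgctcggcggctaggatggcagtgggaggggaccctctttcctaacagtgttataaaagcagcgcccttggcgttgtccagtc

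The microRNAs of the miR-200 family and miR-205 target *Zeb1* and *Zeb2*, and the family is known as a guardian of epithelial identity. None of their 6 genes had a promoter peak in any clone, which also held for 42.6% of all protein-coding genes. The share over all microRNA genes was not counted. *Mir200a*, *Mir200b* and *Mir429* lie together on chromosome 4, and *Mir200c* and *Mir141* on chromosome 6, so that the absences are not separate. The nearest peak to *Mir200b* was 23.5, 22.6 and 53.6 kb away in clones 1, 2 and 3, and to *Mir200c* 4.92, 3.15 and 5.17 kb. For *Mir205* it was 11.7, 6.29 and 11.5 kb. These starts are those of the hairpins, and a start of the primary transcript farther upstream would not be counted. The mature sequences (RefSeq, GRCm38.p6) are shown with the seed, bases 2 to 8, in capitals. The first 3 share 1 seed and the next 2 another that differs from it in 1 base.
miR-200b-3p: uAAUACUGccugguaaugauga
miR-200c-3p: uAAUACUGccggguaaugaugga
miR-429-3p: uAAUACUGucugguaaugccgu
miR-200a-3p: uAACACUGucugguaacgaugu
miR-141-3p: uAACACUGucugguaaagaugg
miR-205-5p: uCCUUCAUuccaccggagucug

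The sequence under peaks, from 100 kb before to 100 kb after each gene, was set side by side for the groups. Its median over the epithelial genes was 15.0, 15.9 and 14.5 kb in clones 1, 2 and 3, or 15.1 ± 0.709 kb (mean ± SD over n = 3 clones). Over the mesenchymal genes it was 7.07, 6.87 and 6.54 kb, or 6.83 ± 0.27 kb. The groups did not differ in one direction for every gene, since *Snai1* exceeded both epithelial genes in clones 1 and 2. As a share of the window, the epithelial genes had 5.91 ± 0.262% and the mesenchymal genes 2.45 ± 0.137% under peaks, whereas the median of all protein-coding genes was 1.55%, 2.22% and 1.61%. As both epithelial genes share most of their window, this is nearly 1 measurement. The mesenchymal genes differed more among themselves, from 1.76 kb at *Snai2* to 53.3 kb at *Snai1*, both in clone 2. *Cdh1*, without a promoter peak, thus lay in a well covered window, at the percentiles 86.3, 77.1 and 92.6 of all protein-coding genes by the covered share. Its body peaks held 4.18, 4.59 and 3.51 kb in clones 1, 2 and 3. Peaks beyond the gene held 10.16, 11.37 and 10.48 kb. Among these were the *Cdh3* promoter peak, of 2.17, 1.59 and 0.76 kb, and the *Cdh3* body peaks, of 6.9, 4.7 and 6.82 kb. The percentiles therefore describe the shared window and not *Cdh1* alone. With a window of 50 kb in place of 100 kb the group values came closer, at 8.51 kb for the epithelial and 6.76 kb for the mesenchymal genes.

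**Figure D4:**
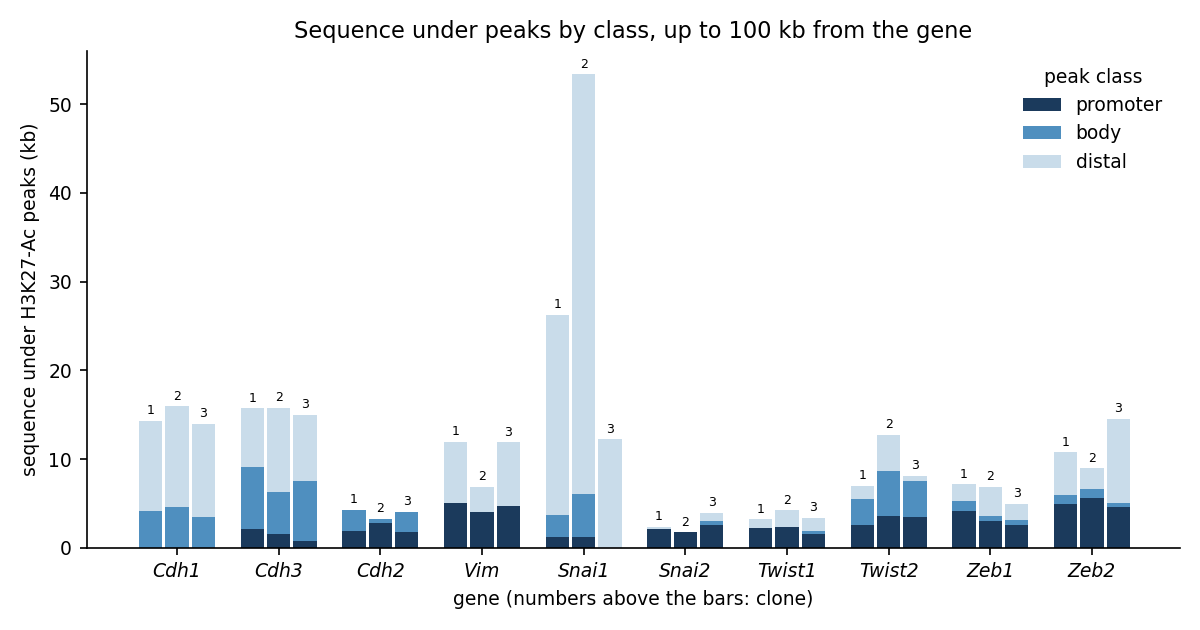
Length under H3K27-Ac peaks in kb (y axis) for each gene (x axis) and clone (numbers above the bars), divided into promoter, body and distal peaks up to 100 kb from the gene. Peaks near both *Cdh1* and *Cdh3* are drawn for each; *Cdh1* has no promoter part, *Cdh2* no distal part, and *Snai1* reaches 53.3 kb in clone 2.

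Body and distal peaks followed no common rule across the genes. Summed over the list there were 27, 31 and 21 body peaks in clones 1, 2 and 3 (mean 26.3 ± 5.03, SD, n = 3 clones, and 16.3 with peaks of −log10 q of at least 5 only) and 56, 110 and 53 distal peaks (73.0 ± 32.1). These sums are per gene, so that peaks near both *Cdh1* and *Cdh3* count for each. With each peak counted once, and as distal only outside every promoter and body of the list, there were 41, 89 and 38 (56.0 ± 28.6, SD, n = 3 clones). *Snai1* alone accounted for 20, 57 and 11 of the distal peaks. Of the 41, 89 and 38 peaks, 10 in each clone lay at the promoter of another protein-coding gene. When peaks of the 3 clones were merged, 10 of 61 regions around *Snai1*, 8 of 26 around *Cdh1* and 3 of 6 around *Vim* were in all clones. These are 16.4%, 30.8% and 50.0%, against 27.3% of all 57727 merged regions of the genome. Over the 10 genes the share was lowest at *Cdh2*, with 1 of 8 regions, and highest with 50.0% at *Snai2*, *Twist1* and *Vim*, which had at most 6 regions each. Of the regions around *Snai1*, 42 (68.9%) were in clone 2 only, against 43.7% in the genome, and that list is the longest. The share was 71.4% at *Twist2*, 55.6% at *Zeb1* and 50.0% at *Twist1*. At the other genes of the list it was lower than in the genome, from 0% at *Snai2* and *Vim* to 26.9% at *Cdh1*.

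*Zeb1* encodes the other zinc finger and homeobox repressor and lies on chromosome 18 from 5591860 to 5775467, with 11 starts. It had 2 promoter peaks in each clone, near the outermost start and about 12.1 kb inside. The former had 136 reads (114 to 161) in clone 1, 223 (195 to 254) in clone 2 and 78 (61.7 to 97.3) in clone 3, and the latter 62, 47 and 69. In clone 3 the intervals of these start regions overlapped, while in clones 1 and 2 the outer one was clearly higher. By fold the outer one stood at the percentiles 85.6, 63.3 and 50.7. A weak body element at 28.31 kb in intron 1 was shared, with 41, 25 and 46 reads. Peaks covered 2.54%, 1.56% and 1.70% of this long gene.

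*Cdh2* encodes N-cadherin and is a minus-strand gene of chromosome 18, from 16588877 to 16809246. Its promoter peak had 87 reads (69.7 to 107) in clone 1, 142 (120 to 167) in clone 2 and 55 (41.4 to 71.6) in clone 3, at the percentiles 46.7, 39.0 and 30.0. In each clone these percentiles, which are by fold, were above those of *Cdh3*, at 18.5, 22.1 and 11.1. By reads the intervals of both genes overlapped in every clone, with 56 (42.3 to 72.7), 133 (111 to 158) and 49 (36.3 to 64.8) at *Cdh3*. The background that enters the fold was higher on chromosome 8, where *Cdh3* lies, and its part was not tested. It had 5, 1 and 4 body peaks, each in intron 2, and the strongest by fold had 35, 42 and 34 reads. No distal peak was listed within 100 kb in any clone, which held for no other gene of the list. The cadherin genes thus formed 3 patterns: intron peaks without a promoter peak at *Cdh1*, both at *Cdh3*, and a promoter peak with weak intron peaks at *Cdh2*.

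By stitched domain, no gene of the list had its promoter in the top 5% by bases under peaks in all 3 clones, which 2.34% of protein-coding genes had. In clones 1 and 3, *Vim* and *Cdh3* were within it, at 0.694% and 1.27% from the top in clone 1 and 0.257% and 0.629% in clone 3. In clone 2 they fell outside, at 11.2% and 6.16%. The *Cdh3* domain also held the start of the neighbour *6030452D12Rik* in clones 1 and 3, but not in clone 2. *Snai1* was within it in clones 1 and 2 at 0.179% and 0.0875%. *Twist2* at 4.06% in clone 2 and *Zeb2* at 4.21% in clone 3 were within it in 1 clone each.

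Other genes of the pathway were counted from set lists. Of 32 epithelial genes besides the cadherins above, promoter peaks were found in every clone for 5 (15.6%) and in none for 19 (59.4%). The 5 were *Klf4*, *Klf5*, *Tjp1*, *Cxadr* and *Perp*. Of these the zinc finger factor gene *Klf4* stood highest, with 203, 391 and 155 reads, before the tight junction gene *Tjp1* with 85, 254 and 117 and *Klf5* with 157, 210 and 83. Among the 19 with none were some genes of cell contacts, namely *Epcam*, the claudin genes *Cldn1*, *Cldn3*, *Cldn4* and *Cldn7*, *Ocln*, *Marveld2*, *Marveld3*, *Lsr*, *Dsp* and *Dsg2*. The others were the regulators *Esrp1*, *Grhl2*, *Grhl3*, *Ovol1* and *Ovol2*, with *Rab25*, *St14* and *Prss8*. A promoter peak in some clones was listed for *Tjp3*, *Grhl1*, *Pkp3*, *Elf3*, *Spint1* and *Spint2* in clone 2, for *Pkp1* in clone 1 and for *Esrp2* in clones 2 and 3. Of 30 further mesenchymal genes, 16 (53.3%) had one in all clones and 6 (20.0%) in none, against 46.5% and 42.6% of all protein-coding genes. The lysyl oxidase gene *Lox* had 178, 350 and 97 reads, and the fibronectin receptor gene *Itga5* 179, 365 and 117. Those with none were *Tagln*, *Loxl2*, *Thy1*, *Fap*, *Dcn* and *Lum*. The presence in clones 1 and 2 but not in clone 3 that *Snai1* had was found also at the collagen genes *Col1a1* and *Col1a2*, and at *Acta2*, *Mmp2*, *Pdgfra*, *Cdh11* and *Jup*. The share of all protein-coding genes with this pattern was not counted, so that it cannot be called particular to these genes. The lowest listed count was also highest in clone 3, at 25 reads against 13 and 12. At *Pdgfra*, a receptor of fibroblasts, the reads were 55 and 215. *Tgfbi* had a promoter peak in clone 2 only and the collagen gene *Col3a1* in clone 3 only. Over the list of 38 with the members included, 30 genes had a promoter peak in clone 1, 31 in clone 2 and 24 in clone 3.

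**Figure D5:**
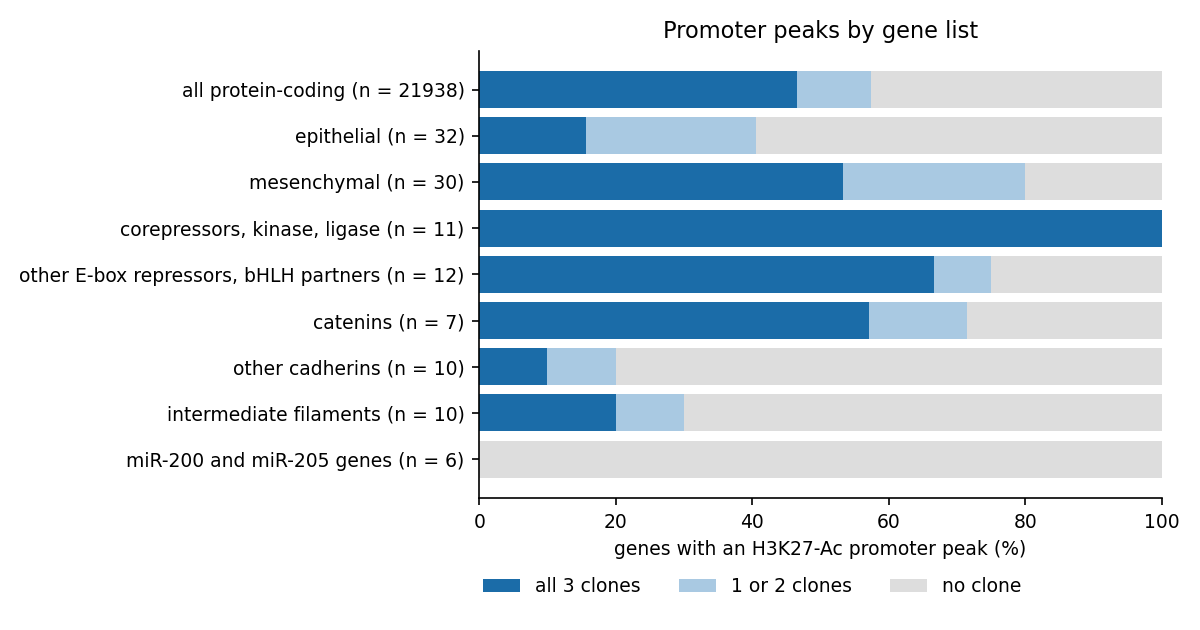
Share of genes (x axis, percent) with an H3K27-Ac promoter peak in all 3 clones (dark), in 1 or 2 clones (light) or in none (grey) for each gene list, without the 10 genes described above, and for all protein-coding genes. The epithelial list has 15.6% in all clones and the mesenchymal list 53.3%, beside 46.5% of all protein-coding genes.

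Genes that work with the factors were counted likewise, beside the 46.5% of all protein-coding genes with a promoter peak in all clones and the 42.6% with none. On the list of corepressors, which also holds a kinase gene and a ubiquitin ligase gene, all 11 had one in every clone. The highest were the kinase gene *Gsk3b* with 192, 397 and 141 reads, the histone deacetylase gene *Hdac2* with 152, 405 and 146, and *Rcor1* with 201, 363 and 114. Of the other E-box repressors and helix-loop-helix partners it was 8 of 12 (66.7%), with *Tcf12*, a partner of the Twist factors, highest at 242, 407 and 205 reads. *Id2*, an inhibitor of such partners, followed with 183, 292 and 146, and *Tcf3* with 169, 359 and 122. *Scrt1*, *Scrt2* and *Hand1* had none, and *Hand2* had one in clone 2 only. Of the catenins that bind cadherins 4 of 7 (57.1%) had one in all clones, among them *Ctnnb1* (β-catenin) with 142, 261 and 78 reads, *Ctnna1* (α-catenin) with 190, 354 and 113, and *Ctnnd1* (p120) with 93, 109 and 103. *Ctnna2* and *Ctnnd2* had none. *Jup* (plakoglobin) had 53 and 115 reads in clones 1 and 2 and none listed in clone 3. The other cadherin genes on the list were mostly without. *Cdh4*, *Cdh5*, *Cdh6*, *Cdh8*, *Cdh10*, *Cdh12*, *Cdh15* and *Cdh18*, 8 of 10 (80.0%), had none in any clone, and *Cdh13* was the one with a promoter peak in all clones, at 158, 189 and 209 reads. Of the other intermediate filament genes, *Lmna* and *Synm* had one in all clones, with 224, 328 and 210 reads at *Lmna* and 91, 134 and 82 at *Synm*. The simple epithelial keratin genes *Krt8* and *Krt18* had none, nor had *Krt5*, *Des*, *Gfap*, *Nes* and *Prph*. Endothelial, immune and skeletal muscle markers counted 0 in every clone, except *Tek* in clone 3.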

How the data were processed

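Single-end reads were aligned by the authors to GRCm38 using bowtie2, and the submitters' processing notes name MACS2 2.1.1. Each clone has its own peak list, in which both H3K27-Ac libraries of clone 3 were merged. Reads of clones 1 and 2 had been screened for mapping bias between alleles, as their peak names tell. Per the deposited files, fold enrichment is the ratio of ChIP to background pileup at a summit after adding 1 to each, and significance is deposited as −log10 of p and of q. No IgG library of clone 2 was analysed here, and the control behind its list is not given in the sources used here.

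Only chromosomes 1 to 19, X and Y entered, without 5, 21 and 3 peaks elsewhere. Whole ChIP reads were recovered for 99.993%, 99.988% and 99.99% of peaks, and for 100% of 3000 simulated ones. Starts came from GENCODE M21. A peak was promoter (within 1 kb of a start), else body (overlapping the gene), else distal (within 100 kb of it). Peaks at most 12500 bp apart formed a domain, ranked by bases under peaks. Members and lists were chosen with earlier results of these data known. Named were all members, list genes without a promoter peak in every clone, and the 3 with the highest mean percentile of each pathway list. Genes next to members, *Perp*, *Cxadr*, *Sox9*, *Tcf7l1* and *Itga6* were named after their values were seen. With 1 condition no test was made, and SDs are over 3 clones. Alternatives varied the q-value, list length, windows, joining distance and clones. The tools were scipy 1.17.1, pandas 2.3.3, numpy 2.4.6, matplotlib 3.10.9 and Python 3.11.15.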

Additional observations from a re-analysis of the deposited data

How the results depend on the processing

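Of 89 comparisons of 11 results with 15 alternative settings, 74 stayed within the spread over clones or within 1.5 times the reported count. Of the alternatives only the promoter window of 2 kb could have added a promoter peak, since the others could only remove one. It added none at *Cdh1*, whose nearest peaks lay 14.9, 7.55 and 15.0 kb from a start in clones 1, 2 and 3. It also added none at *Snai1* in clone 3, where the nearest lay at 4.62 kb. The other alternatives thus say nothing on these absences. With a −log10 q of at least 5 the median length under peaks was 13.3 kb for epithelial and 5.99 kb for mesenchymal genes and body peaks averaged 16.3; with equal list lengths the lengths were 14.4 and 6.42 kb. With 50 kb beyond the gene ends the epithelial median was 8.51 kb and distal peaks, summed per gene, averaged 38.3; with 200 kb the medians were 18.7 and 9.62 kb and distal peaks 130. Where a peak had to cover a start base, 0 epithelial genes of 2 and 11.8% of the epithelial list had one in all clones; the clone 3 peak of *Cdh3* begins after the start. Genes with a promoter domain in the top 5% numbered 1 when peaks were joined over 5 kb, and 0 to 2 when a clone was left out: *Vim* and *Cdh3* without clone 2 and *Snai1* without clone 3.

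Peak lists hold only sites past the threshold, so weak acetylation is not seen, least in clone 3. Reads without molecular identifiers are not independent molecules. Clone numbers are those of the labels, separate cultures are taken from the study's methods, and SDs are over clones of 1 condition. Fewer cells with the mark and less mark per cell cannot be told apart. No paired analysis was possible because the series holds 1 condition and no result comes from a test.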
